A study of Mus musculus with 6 samples.

Results

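Transcripts of 5 transcription factors of noradrenergic identity, Phox2a, Tfap2a, Tfap2b, Eya2 and Shox2, were examined in bulk RNA sequencing of locus coeruleus punches. They were listed by name and found by their mouse Ensembl identifiers among the 56923 genes of the deposited table (ENSMUSG00000007946.12, ENSMUSG00000021359.17, ENSMUSG00000025927.14, ENSMUSG00000017897.19 and ENSMUSG00000027833.17, in that order). All 5 were present, had reads in each of the 6 libraries and passed the filter on low values that left 16411 genes. The groups were 3 wild-type (WT) libraries, numbered 62, 63 and 66, and 3 libraries from 5xFAD transgenic mice, numbered 64, 65 and 79. The 5xFAD line expresses human transgenes with familial Alzheimer's disease mutations, APP among them, from the neuronal mouse Thy1 promoter, and develops amyloid deposits. The labels give no age, sex, strain, treatment or batch (each column name ends in a lane-like number of its own), and do not say whether a number is 1 animal, so the p-values measure only the spread between these libraries, which may be technical. The series concerns early sleep loss, tau phosphorylation and overexcitable neurons of the locus coeruleus. Here the genotypes were compared for the level of these 5 transcripts. Values are normalized counts, the reads assigned to a gene divided by the size factor of the library. A log2 ratio below is the mean of log2(normalized count + 1) in 5xFAD minus that in WT, with n = 3 in each group.

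The locus coeruleus is the main source of noradrenaline in the forebrain. Its neurons arise at the front of the hindbrain, where transcription factors that include the paired-type homeodomain protein Phox2a switch on the genes for noradrenaline synthesis, among them Dbh and Th. Tfap2a and Tfap2b encode AP-2 factors, which bind GC-rich palindromes and also act in neural crest and in inhibitory neurons of the cerebellum. Eya2 encodes a transcriptional coactivator with phosphatase activity that works with homeodomain partners, and Shox2 encodes a homeodomain factor known from limb, heart and sensory neuron development.

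RefSeq start regions (GRCm38.p6) were held for 4 of the 5 factors, with no entry for Eya2. The 250 bases before the start are shown for Dbh, whose promoter Phox2a is known to bind, for Phox2a and Tfap2b as the homeodomain and AP-2 factors, and for Shox2, the member with the lowest p below. Capitals mark TAAT on either strand (ATTA is the same core read on the other strand), the core that homeodomain proteins recognise, and adjoining or overlapping cores run together.
Dbh (chr2:27165257-27165506, plus strand): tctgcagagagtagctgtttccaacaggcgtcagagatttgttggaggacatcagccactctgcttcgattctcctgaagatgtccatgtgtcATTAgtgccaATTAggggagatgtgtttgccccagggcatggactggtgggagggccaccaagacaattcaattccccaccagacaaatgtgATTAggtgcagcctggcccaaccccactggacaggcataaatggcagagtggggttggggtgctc
Phox2a (chr7:101818063-101818312, plus strand): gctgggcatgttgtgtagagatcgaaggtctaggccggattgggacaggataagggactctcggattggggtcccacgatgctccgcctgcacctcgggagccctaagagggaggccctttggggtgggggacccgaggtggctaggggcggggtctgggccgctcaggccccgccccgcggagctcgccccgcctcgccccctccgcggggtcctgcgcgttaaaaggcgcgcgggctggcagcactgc
Tfap2b (chr1:19211804-19212053, plus strand): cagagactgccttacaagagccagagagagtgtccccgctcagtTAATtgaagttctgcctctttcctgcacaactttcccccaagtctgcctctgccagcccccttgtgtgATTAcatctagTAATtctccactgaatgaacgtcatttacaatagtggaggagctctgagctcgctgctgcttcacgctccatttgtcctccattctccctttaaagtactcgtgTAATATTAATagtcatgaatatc
Shox2 (chr3:66981772-66982021, minus strand): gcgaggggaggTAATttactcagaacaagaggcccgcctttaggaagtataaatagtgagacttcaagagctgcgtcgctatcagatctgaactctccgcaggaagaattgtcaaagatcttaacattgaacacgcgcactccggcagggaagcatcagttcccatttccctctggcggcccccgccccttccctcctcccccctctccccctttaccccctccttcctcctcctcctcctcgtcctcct
The Dbh stretch held 3 such cores, which began 157, 147 and 65 bases before the start. The Tfap2b stretch held 6, beginning 206, 138, 127, 23, 19 and 17 bases before the start, and the Shox2 stretch held 1, at 239 bases. The Phox2a stretch, of 70.4% G and C, held 0. Of 32851 start regions of the same length, 54.9% held at least 1 TAAT core, with a median of 1. The AP-2 palindrome GCCNNNGGC (the same on both strands) occurred in 13.7% of the start regions and in none of these 4, nor in either start region of Tfap2a or in that of Th. A match is a string of letters and not a measured binding site.

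The libraries held 15158712 to 20079349 reads assigned to genes. Thy1, whose regulatory sequence drives the transgenes, had 7976 to 9090 normalized counts in WT and 16885 to 22211 in 5xFAD, which fits the labels. It was the gene past the threshold in limma (adjusted p = 0.0456), a call that ended without WT 62, WT 63, WT 66, 5xFAD 64 or 5xFAD 79, at adjusted p-values of 0.145 to 0.397. The tissue label was borne out by Dbh, the enzyme that makes noradrenaline from dopamine, at 1281 to 2895 normalized counts. Transcripts of cerebellar granule and Purkinje cells were present at unequal levels. The summed level of 6 granule cell markers ran from 2759.7 to 8439 in WT and from 4812 to 10571 in 5xFAD, and that of 5 Purkinje cell markers from 4014 to 19982 in WT and from 7233 to 26187 in 5xFAD. None of these 11 markers was at 0 in a group. By sign all 6 granule markers and all 5 Purkinje markers were higher in 5xFAD, against 50.2% of all genes tested. Their median log2 ratios were 1.02 and 0.79, and 0 of them passed in limma. WT 63, 5xFAD 64 and 5xFAD 65 had the highest sums of both lists and WT 62 the lowest. The sum of 5 cerebellar interneuron markers varied by 1.19-fold, from 6361 to 7597, of which Pvalb made up 4011 to 5310. Within each genotype, Kit, Sorcs3 and Ptprk of that list were highest in WT 63 and 5xFAD 65, and Pax2 was lowest there. WT 66 had the lowest noradrenergic level and stood apart in choroid plexus markers, which summed to 1313 there and to 102 to 151 in the other 5 libraries. Ttr made up 1107 of that 1313. Folr1, Kl and Clic6 were also highest in WT 66, and Aqp1 was highest in 5xFAD 65. Lists for astrocytes, microglia and vascular cells varied by 1.12-fold to 1.20-fold in their sums over the libraries. The sums varied by 1.599-fold for oligodendrocytes (5 of 5 markers higher in 5xFAD) and 1.75-fold for meningeal fibroblasts (6 of 6 higher). They varied by 2.16-fold for ependymal cells (4 of 4 lower) and 2.86-fold for serotonergic neurons (3 of 3 tested lower). Within the astrocyte list Gfap was 1.55-fold higher in 5xFAD with groups that did not overlap, and passed in the authors' deposited table (adjusted p = 0.0244) but not in limma.

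Tfap2b was the most abundant of the 5 per length and Tfap2a the least. Divided by the exon length of each gene in GENCODE M21, the level over all 6 libraries was 72.5 normalized counts per kb for Tfap2b (48.3 to 96.2). Shox2 followed at 59.1 per kb (40.5 to 76.6) and Eya2 at 58.9 per kb (40.3 to 69.9). The ranges of these 3 overlapped, so their order is within the spread of the libraries. Phox2a came next at 23.0 per kb (15.6 to 31.8), wholly under the range of Eya2, and Tfap2a at 13.2 per kb (9.995 to 17.6), which overlapped Phox2a. On the same scale Dbh stood at 794 per kb (476 to 1075). GENCODE M21 uses another build than the authors' mm39, and the expressed isoforms can be shorter than all exons joined.

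**Figure D1:**
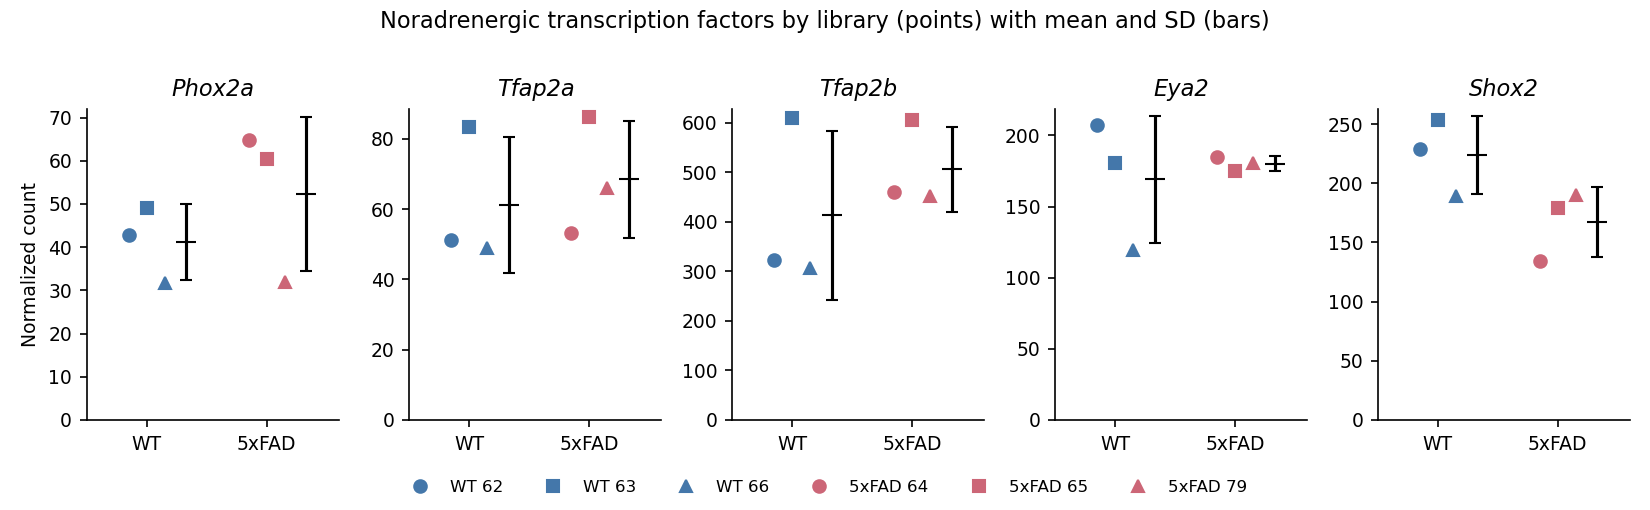
Normalized counts of the 5 transcription factors (vertical axes, each starting at 0) in each WT and 5xFAD library (points), with the group mean and SD (bars, n = 3). The groups overlap for all 5 genes, narrowly for Shox2, where WT 66 at 188.9 lies just under 5xFAD 79 at 190.0.

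Phox2a was the faintest of the members in reads. It read 42.7, 49.0 and 31.6 normalized counts in the WT libraries and 64.7, 60.3 and 32.0 in the 5xFAD libraries. The 5xFAD libraries 64 and 65 were above all WT libraries and 5xFAD 79 was level with WT 66, the lowest. The mean was 41.1 ± 8.80 in WT and 52.3 ± 17.8 in 5xFAD (mean ± SD, n = 3 libraries each), and the log2 ratio was 0.30 (SE 0.30, 95% interval −0.37 to 0.97), which did not pass in limma (adjusted p = 0.9995). A single library moved this value in either direction. It was 0.12 without 5xFAD 64, 0.13 without WT 66 and 0.17 without 5xFAD 65. Without 5xFAD 79 it was 0.61 (unadjusted p = 0.0378 in limma, where 3.42% of genes had an unadjusted p under 0.05 and 0 passed the adjustment). The gene rested on 31 to 58 reads per library, and its scatter within groups was 3.91 times the variance of read counting. In fold terms the interval of the fit to all 6 libraries ran from 0.774 to 1.96. With the mean level of cerebellar markers as a covariate the log2 ratio of Phox2a was 0.044 (SE 0.31, unadjusted p = 0.891 in limma). In bulk tissue, fewer cells of a type and less RNA per cell cannot be told apart. Phox2a shares 95 exon bases, 4.67% of its exons, with Inppl1 on the opposite strand, which read 539.7 to 627. The kit named in the labels does not mark strand, so reads there cannot be told apart.

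Tfap2a and Tfap2b had a Pearson r of 0.917 over the 6 libraries (exact permutation p = 0.025, adjusted p = 0.375 over 15 relations). The relation did not pass the adjustment, and the levels of these genes did not separate the genotypes. Tfap2b read 323, 609.9 and 306 normalized counts in the WT libraries and 461, 605 and 453 in the 5xFAD libraries. WT 63 and 5xFAD 65 were highest, and WT 62 and WT 66 lowest. The mean of Tfap2b was 413 ± 171 in WT and 506 ± 85.7 in 5xFAD (mean ± SD, n = 3 libraries each), and the log2 ratio was 0.35 (SE 0.29, 95% interval −0.35 to 1.06, limma adjusted p = 0.9995). Tfap2a read 51.1, 83.4 and 49.0 in the WT libraries and 53.2, 86.3 and 66.0 in the 5xFAD libraries. Its high libraries were again WT 63 and 5xFAD 65. The mean of Tfap2a was 61.2 ± 19.3 in WT and 68.5 ± 16.7 in 5xFAD, and the log2 ratio was 0.18 (SE 0.26, 95% interval −0.40 to 0.75, limma adjusted p = 0.9995). Without 5xFAD 65 the sign of Tfap2a turned, at −0.0030. No stretch of 50 bases was shared between transcripts of Tfap2a and Tfap2b, so reads of that length would not be split between them. Of the 50-base stretches of Tfap2a 10.2% also occurred in transcripts of other genes, against 0.0316% for Tfap2b. Tfap2a overlaps 3 antisense gene models, which read at most 9.24 normalized counts.

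WT 63 and 5xFAD 65, the libraries highest in both AP-2 genes, also had the 2 highest sums of the granule and Purkinje marker lists. The same libraries were highest in the sum of 6 noradrenergic effectors (Th, Dbh, Ddc, Gch1, Slc18a2 and Slc6a2). These sums were 11434 and 12863 there and 5945 to 10149 in the others. Sums of 5 parabrachial markers were also highest there, at 949 and 906, against 572 to 783. Which of these the AP-2 genes follow was not tested. Over the 6 libraries the log2 level of Tfap2b and the mean log2 level of the Purkinje markers had a Pearson r of 0.945 (exact permutation p = 0.0181, adjusted p = 0.292 over 35 relations) and a Spearman rho of 0.886 (exact permutation p = 0.0333, adjusted p = 0.233). Without the pair of libraries farthest from the median, WT 62 and 5xFAD 65, r was 0.925. For Tfap2a the same r was 0.84 (exact permutation p = 0.0528, adjusted p = 0.406), the rho 0.886 (exact permutation p = 0.0333, adjusted p = 0.233) and the r without those libraries 0.723. These relations were added after the values were seen, and none passed the adjustment. Groups of 3 libraries are too small for a value within each genotype. With the mean of the 11 cerebellar markers as a covariate in limma, the log2 ratio of Tfap2b turned to −0.02 (SE 0.13, 95% interval −0.30 to 0.26) and that of Tfap2a to −0.12 (SE 0.24, 95% interval −0.65 to 0.41). All 11 of these markers were themselves higher in 5xFAD by sign, so this covariate overlaps with genotype. Without WT 63, the WT library rich in cerebellar markers, the log2 ratio of Tfap2b was 0.67 (unadjusted p = 0.000689 in limma, where 6.03% of genes had an unadjusted p under 0.05 and 0 passed the adjustment).

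**Figure D2:**
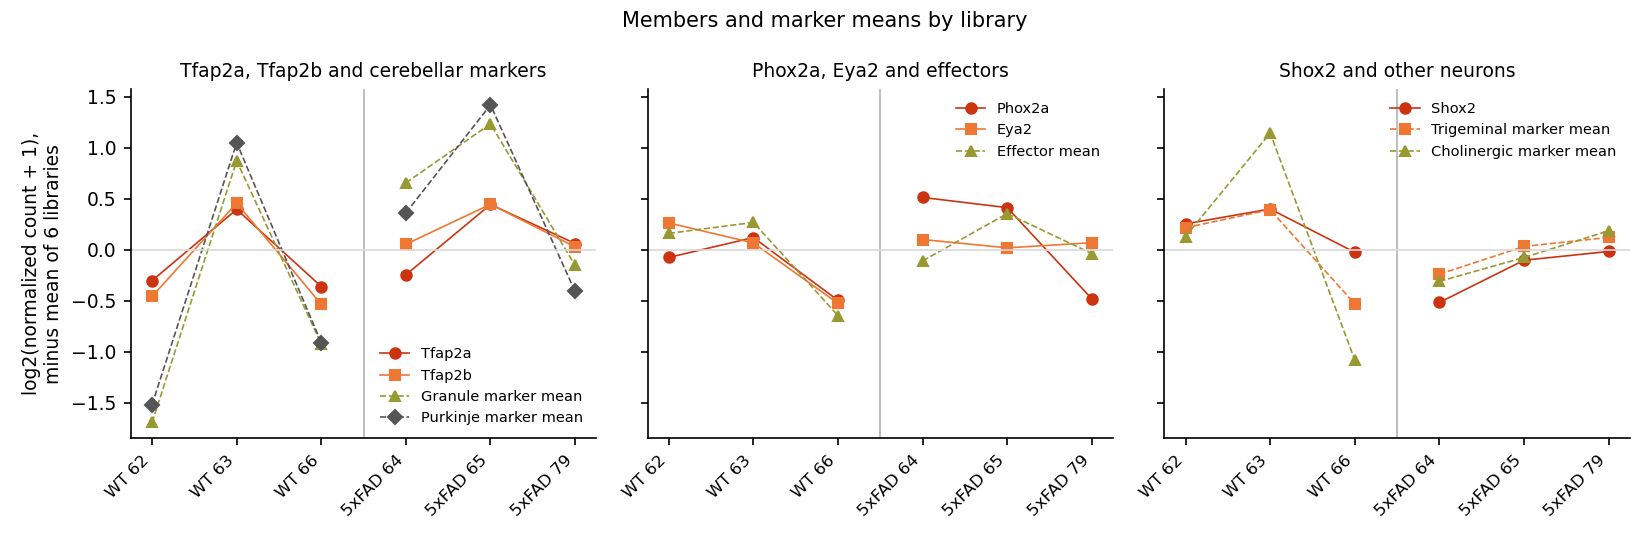
Log2(normalized count + 1) of members (solid lines) and mean log2 level of marker lists (dashed lines), each minus its own mean over the 6 libraries (vertical axis), with WT libraries on the left and 5xFAD libraries on the right of each panel. Lines only join points of the same gene or list. Tfap2a, Tfap2b, the cerebellar means and the effector mean all peak in WT 63 and 5xFAD 65. The effector mean, Eya2, Phox2a, Tfap2a and Tfap2b have their lowest point in WT 66.

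Of the members Eya2 had the narrowest spread over the 5xFAD libraries, and it was low in a single WT library. It read 207, 181 and 119 normalized counts in the WT libraries and 185, 175 and 181 in the 5xFAD libraries. The 5xFAD libraries lay within the range of WT, and WT 66, the library with the least noradrenergic transcript, was the lowest. WT 66 was also the lowest library for Phox2a, Tfap2a and Tfap2b. The mean was 169 ± 44.9 in WT and 180.2 ± 5.14 in 5xFAD (mean ± SD, n = 3 libraries each), and the log2 ratio was 0.13 (SE 0.19, 95% interval −0.29 to 0.55, limma adjusted p = 0.9995). Over both groups the scatter of Eya2 within groups was 6.08 times the variance of read counting, on 117 to 223 reads. Eya2 was the member whose 95% interval excluded a 1.5-fold change in either direction, as it did for 71.4% of all genes tested. The upper bound of Eya2 passed 1.5-fold without WT 62, WT 63, 5xFAD 64, 5xFAD 65 or 5xFAD 79 (1.56-fold to 1.64-fold), and was 1.56-fold with the cerebellar covariate and without trend and robust moderation. Without WT 66 its log2 ratio turned to −0.10. No annotated exon of another gene overlapped it and none of its 50-base stretches occurred elsewhere.

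Shox2 had a lower mean in 5xFAD than in WT and the smallest p of the members, but did not pass. It read 229, 254 and 188.9 normalized counts in the WT libraries and 134, 179 and 190.0 in the 5xFAD libraries. The highest 5xFAD library, 79, was just above the lowest WT library, 66, and the groups otherwise did not meet. The mean was 224 ± 32.8 in WT and 168 ± 29.6 in 5xFAD (mean ± SD, n = 3 libraries each), and the log2 ratio was −0.42 (SE 0.16, 95% interval −0.78 to −0.06, unadjusted p = 0.0264, limma adjusted p = 0.9995). In fold terms the interval ran from 0.582 to 0.959 of the WT level. The scatter of Shox2 within groups was 4.85 times the variance of read counting, on 116 to 295 reads. With the cerebellar marker mean as a covariate its log2 ratio was −0.48 (unadjusted p = 0.0270 in limma, with 3.65% of genes under 0.05). With the noradrenergic effector mean as a covariate it was −0.48 (unadjusted p = 0.00636 in limma, with 2.23% of genes under 0.05). Leaving out each library in turn gave log2 ratios from −0.27 (without 5xFAD 64) to −0.54 (without WT 66). Shox2 was no longer under 0.05 before adjustment without WT 62 (unadjusted p = 0.0734 in limma), without WT 63 (unadjusted p = 0.0939) or without 5xFAD 64 (unadjusted p = 0.111). The same held without trend and robust moderation (unadjusted p = 0.0539 in limma). In the authors' deposited table Shox2 had a log2 ratio of −0.42, turned here to 5xFAD over WT, and an adjusted p = 0.9999. Shox2 shares 153 exon bases, 4.62% of its exons, with Rsrc1 on the opposite strand, which read 1178 to 1338 and had a log2 ratio of −0.07 (SE 0.06).

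Markers of other neurons were read beside Shox2, since sensory neurons of the mesencephalic trigeminal nucleus adjoin the punch. The 5 matched trigeminal markers summed to 429 to 845 in WT and 548 to 732 in 5xFAD, with 3 higher and 2 lower in 5xFAD. The 3 cholinergic markers summed to 515 to 1994 in WT and 738 to 1084 in 5xFAD, with 1 higher and 2 lower. None was at 0 in a group. Over the 6 libraries Shox2 and the trigeminal mean had a Pearson r of 0.65 (exact permutation p = 0.160, adjusted p = 0.406 over 35 relations) and a Spearman rho of 0.829 (exact permutation p = 0.0583, adjusted p = 0.292). Without WT 66 and 5xFAD 64, r was 0.969. With the cholinergic mean the r was 0.593 (exact permutation p = 0.1625, adjusted p = 0.406). The rho was 0.771 (exact permutation p = 0.103, adjusted p = 0.450). Without WT 63 and WT 66 that r was 0.887. With the mean of the noradrenergic effectors r was 0.321, and 0.932 without WT 66 and 5xFAD 65, so a high r on the libraries left was not particular to trigeminal markers. The part of any of these cells in the Shox2 values was not tested.

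**Figure D3:**
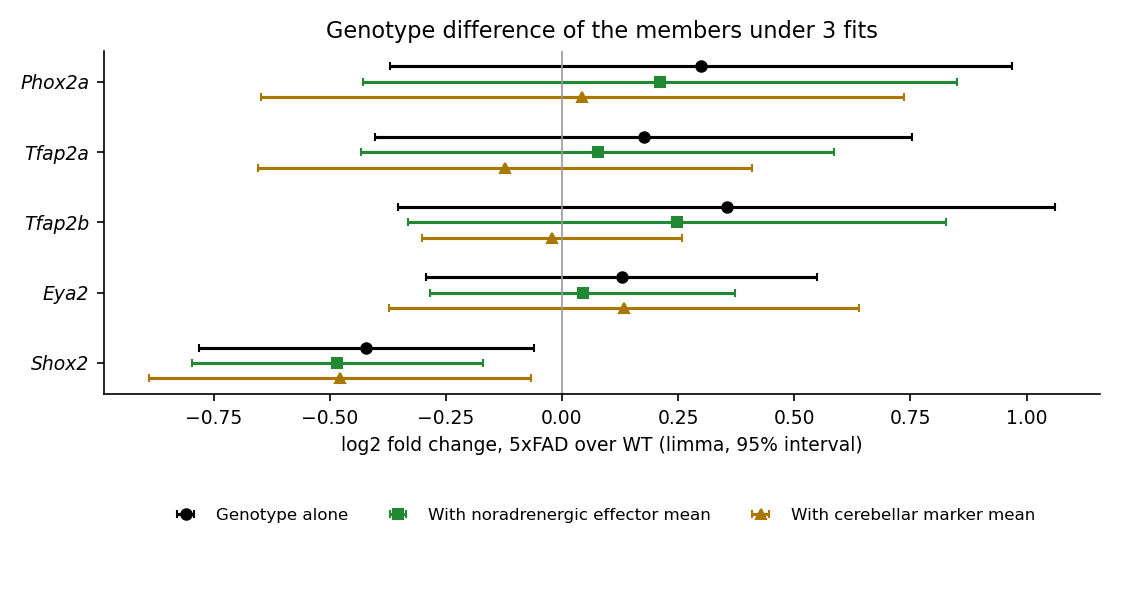
Log2 ratio, 5xFAD over WT, with its 95% limma interval (horizontal axis) for each member, with genotype alone, with the mean of 6 noradrenergic effectors or with the mean of 11 cerebellar markers as a covariate. Shox2 stays near −0.42 to −0.48 under the 3 fits, while Tfap2b moves from 0.35 to −0.02 with the cerebellar mean.

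Taken as a set, 0 of the 5 factors passed in limma, where 0.00609% of the 16411 genes tested did. At an unadjusted p under 0.05 there was 1 member, Shox2, and 2.32% of all genes, or 1.05% counting those lower in 5xFAD. The edgeR and DESeq2 tests on recovered reads likewise called 0 of the 5, against 0.00609% and 0.0244% of genes, with Shox2 as the 1 member under 0.05 before adjustment, at p-values of 0.0259 in edgeR (2.3% of genes) and 0.0268 in DESeq2 (0.926% of genes). By sign, 4 members were higher and 1 lower in 5xFAD, with a median log2 ratio of 0.18, where 50.2% of all genes were higher and the median was 0.00053. For 0 of the 5 did the groups fail to overlap, against 7.42% of genes. The members varied more between libraries of a group than most genes of like abundance. The SD of log2 values within groups was 0.45 for Phox2a, 0.38 for Tfap2a, 0.42 for Tfap2b, 0.29 for Eya2 and 0.24 for Shox2. Among the 500 tested genes nearest in mean level, these stood at the 81.8, 82.8, 98.6, 90.0 and 84.2 percentile. By the same measure the 6 effectors stood at the 91.6 (Gch1) to 99.6 (Th and Dbh) percentile. A high spread was therefore not particular to the members.

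To set each factor against a proxy for the noradrenergic content of its punch, the mean log2 level of 6 effectors (Th, Dbh, Ddc, Gch1, Slc18a2 and Slc6a2) was subtracted in each library. Whether all 6 are particular to noradrenergic cells in these punches was not tested. On this log2 scale Shox2 was at −2.27, −2.23 and −1.74 in WT and −2.77, −2.82 and −2.34 in 5xFAD. All 3 5xFAD libraries were lower than all WT libraries, by 0.56 in the mean (two-sided exact permutation p = 0.1, the smallest that 3 against 3 allows, adjusted p = 0.5 over the 5 members). The groups failed to overlap on this scale for 1.28% of all genes tested, and in that direction for 1.04%. Phox2a differed by 0.16, with values from −4.67 to −4.28 in WT and −4.87 to −3.81 in 5xFAD (exact permutation p = 0.8). Tfap2b differed by 0.21 (exact permutation p = 0.9), Tfap2a by 0.03 (exact permutation p = 1) and Eya2 by −0.01 (exact permutation p = 0.9). The adjusted p was 1 for each of these 4. Groups overlapped for all members other than Shox2.

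**Figure D4:**
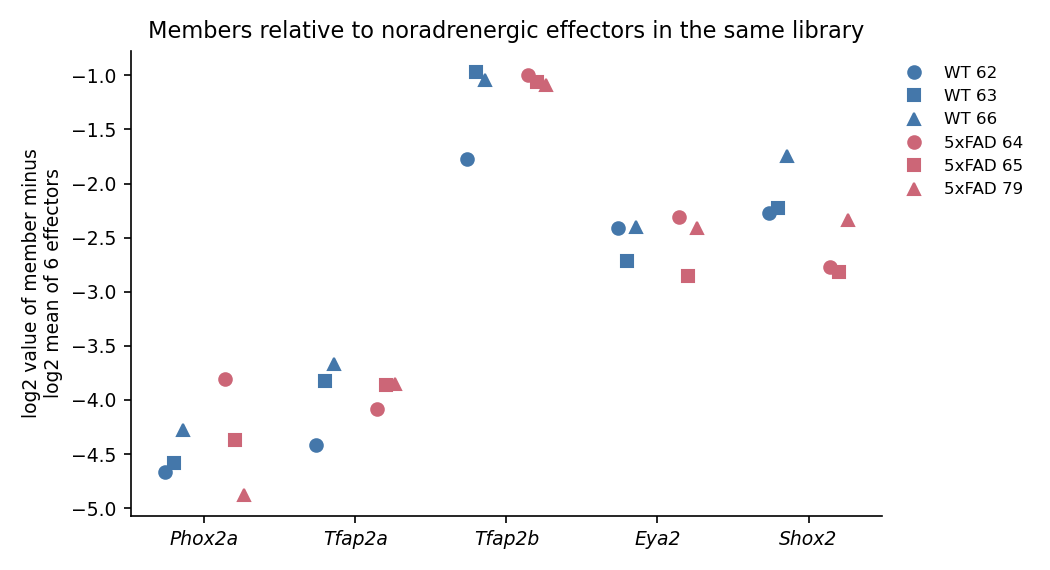
Log2(normalized count + 1) of each member minus the mean log2 level of 6 noradrenergic effectors in the same library (vertical axis), by library (points). The 3 WT points of Shox2, from −2.27 to −1.74, lie above its 3 5xFAD points, from −2.82 to −2.34, and the groups overlap for the other 4 genes.

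The effectors themselves, enzymes and transporters that noradrenergic neurons use, did not pass either. Of the 6, 5 were higher and 1 was lower in 5xFAD by sign, with a median log2 ratio of 0.22, and limma, edgeR and DESeq2 called 0, with 0 at an unadjusted p under 0.05 in limma. Dbh read 2187, 2492 and 1281 in the WT libraries and 1879, 2895 and 2089.5 in the 5xFAD libraries. Its log2 ratio was 0.23 (SE 0.31), and it turned to −0.05 without WT 66, the lowest library. Tyrosine hydroxylase (Th), which sets the rate of catecholamine synthesis, was at 0.24 (SE 0.35) and Ddc, which makes dopamine, had 0.20 (SE 0.24). The noradrenaline transporter Slc6a2 had 0.24 (SE 0.29) and the vesicular transporter Slc18a2 had 0.14 (SE 0.30). Without WT 66 these 4 turned to −0.08, −0.04, −0.04 and −0.15. Gch1, which starts the synthesis of the cofactor that Th needs, was the lower effector, at −0.21 (SE 0.23). The value of Gch1 was −0.017 without WT 62, −0.096 without WT 63 and −0.51 without WT 66 (unadjusted p = 0.00633 in limma). The effector mean had a Pearson r of 0.804 with Eya2 (exact permutation p = 0.1, adjusted p = 0.443 over 15 relations) but a Spearman rho of 0.0286 (exact permutation p = 1, adjusted p = 1). Without WT 66 and 5xFAD 65, r was 0.234, so the relation rests on those libraries. For Tfap2a the r with the effector mean was 0.731 (exact permutation p = 0.0819) and the rho 0.829 (exact permutation p = 0.0583). For Tfap2b they were 0.708 (exact permutation p = 0.118) and 0.714 (exact permutation p = 0.136). Phox2a had an r of 0.576 and Shox2 one of 0.321. None of these passed the adjustment. Without the same libraries r was 0.526 for Tfap2a, 0.185 for Tfap2b, −0.107 for Phox2a and 0.932 for Shox2.

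Among 12 other factors of noradrenergic or anterior hindbrain development, 10 were tested and 0 passed in limma, edgeR or DESeq2, with 0 at an unadjusted p under 0.05 in limma. By sign 3 were higher and 7 lower, with a median log2 ratio of −0.04. En1 and En2, homeodomain factors of the midbrain-hindbrain border that the cerebellum also expresses, had the 2 highest log2 ratios of the list. En1 had a log2 ratio of 0.50 (SE 0.25) and En2 one of 0.81 (SE 0.52). With the cerebellar covariate these were 0.16 and 0.12. Leaving out each library gave 0.31 (without WT 66) to 0.76 (without WT 63) for En1 and 0.46 (without WT 62) to 1.24 (without WT 63) for En2. En2 read 94.7, 280.4 and 139.9 in the WT libraries and 298, 415 and 164 in the 5xFAD libraries. It was high in WT 63, 5xFAD 64 and 5xFAD 65, which were also the libraries with the highest granule and Purkinje sums. Gata2, a zinc finger factor of sympathetic and serotonergic neurons, had −0.20 (SE 0.16, or −0.087 without 5xFAD 79), and Isl1, a factor of sensory and motor neurons, had −0.52 (SE 0.40). The value of Isl1 ran from −0.24 without WT 62 to −0.92 without WT 66 (unadjusted p = 0.0258 in limma), and was −0.73 with the effector covariate (unadjusted p = 0.0166 in limma). Hand1 and Hand2, which act in sympathetic neurons, were at 0 reads in all 6 libraries.

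Of 12 relatives and partners of the AP-2 and Eya factors, 7 were tested and 0 passed in limma, edgeR or DESeq2, with 0 at an unadjusted p under 0.05 in limma. All 7 were lower by sign, with a median log2 ratio of −0.17, where 49.8% of all genes were lower. Under the cerebellar covariate the signs of Eya3 and Six4 turned to 0.06 and 0.05, and that of Eya3 turned to 0.01 under the effector covariate. Eya3 had a log2 ratio of −0.01 (SE 0.08) and Eya4 one of −0.17 (SE 0.22). Six4, a homeodomain partner of Eya proteins, had −0.19 (SE 0.17). Dach1 and Dach2, corepressors of the same network, had −0.07 (SE 0.09) and −0.27 (SE 0.19). With the cerebellar covariate Dach2 was at −0.082 and Eya4 at −0.060. Leaving out each library gave −0.34 (without WT 63) to −0.030 (without WT 62) for Six4 and −0.47 (without WT 63) to −0.18 (without WT 66) for Dach2. The other AP-2 genes were near 0, with Tfap2c at 0 to 2.04, Tfap2d at 0 to 2.31 and Tfap2e at 0.86 to 4.16 normalized counts, and per kb of exon their means were 0.216, 0.197 and 1.04, under those of Tfap2a and Tfap2b.

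Among themselves the members ranged widely in their correlations over the 6 libraries, which are too few to show that their courses differ. Tfap2a and Tfap2b had a Pearson r of 0.917 (exact permutation p = 0.025, adjusted p = 0.375 over 15 relations), a Spearman rho of 0.886 (exact permutation p = 0.0333, adjusted p = 0.4375) and an r of 0.721 without WT 63 and 5xFAD 65. As deviations from the group means their r was 0.927. The other 9 pairs had r from −0.378 (Phox2a with Shox2) to 0.601 (Phox2a with Tfap2b), and none of the 15 relations passed the adjustment. Among 11032 named genes with a mean of at least 100 normalized counts, those most like Tfap2b in their log2 course over the 6 libraries were Htt (r = 0.992), Zfp626 (r = 0.991) and Myt1 (r = 0.989). Those most like Tfap2a were Plxdc1 (r = 0.998), Slx4 (r = 0.995) and Stx1a (r = 0.990). Phox2a was nearest to Sec16a (r = 0.985), Riok3 (r = 0.983) and Cmtm3 (r = 0.981), Eya2 to Jade1 (r = 0.979), Enc1 (r = 0.975) and Armt1 (r = 0.963), and Shox2 to Zdhhc5 (r = 0.990), Tmub2 (r = 0.987) and Pcbp3 (r = 0.985). An r of at least 0.9 was reached by 3.90% of these genes for Tfap2b, 2.32% for Tfap2a, 0.861% for Phox2a, 0.662% for Eya2 and 0.453% for Shox2. The genes named here were picked as the highest r among 11032 over 6 libraries, so their r is high by selection and was not tested.

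The members lie on 5 chromosomes, Phox2a on 7, Tfap2a on 13, Tfap2b on 1, Eya2 on 2 and Shox2 on 3, and the median log2 ratio of the genes next to each was near 0. Among the 10 nearest tested genes of each, in the order of GENCODE M21, the median log2 ratio was 0.03 for Phox2a, −0.02 for Tfap2a, −0.09 for Tfap2b, 0.05 for Eya2 and −0.07 for Shox2. Shox2 lies on chromosome 3, as does Mme, which encodes the amyloid-degrading peptidase neprilysin and had a log2 ratio of −0.95 (SE 0.13, limma adjusted p = 0.311). In the authors' deposited table Mme passed, with a log2 fold change of −0.96, turned to 5xFAD over WT, and an adjusted p = 4.75e-05. Between them stood 14 tested genes, of which 5 were higher and 9 lower in 5xFAD, with a median of −0.09. Of these 14, 3 had an unadjusted p under 0.05, against 2.32% of all genes, with 2 higher (Vmn2r1 and Tiparp) and 1 lower (Gmps). Beyond the stretch, the plot took in 10 tested genes before Mme and 10 after Shox2, a range that sets the next count. Of these, 4 had an unadjusted p under 0.05 and all 4 were lower, against 1.05% of all genes tested that were lower at that p. Their log2 ratios were −0.24 for P2ry1, −0.20 for Arhgef26, −0.61 for Gpr149 and −0.75 for the gene model Gm42568. Of the 10 nearest neighbours of Shox2, 2 had an unadjusted p under 0.05, Tiparp and Gm42568. The stretch was chosen with the values of Mme and Shox2 known and is a description.

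**Figure D5:**
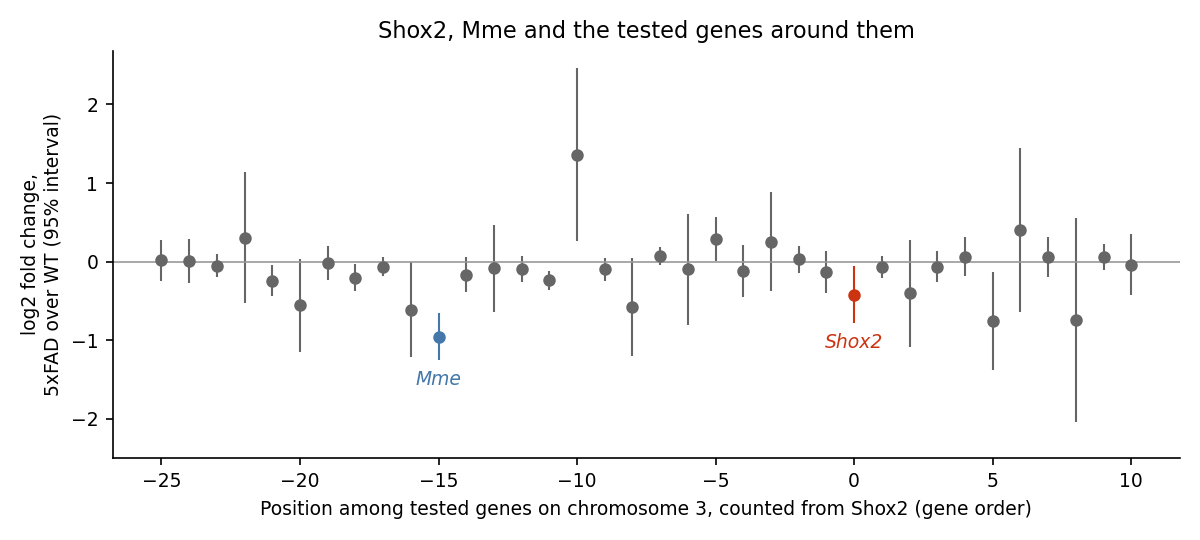
Log2 ratio, 5xFAD over WT, with its 95% limma interval (vertical axis) for tested genes on chromosome 3, placed by their order from Shox2 (horizontal axis, in genes and not in bases). Mme at −0.95 and Shox2 at −0.42 lie below 0 with their whole intervals, with genes on both sides of 0 between them.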

How the data were processed

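Per the labels' protocols, locus coeruleus was punched from brain slices and its TRIzol-extracted RNA was enriched for mRNA on poly-T beads before library preparation (TruSeq). STAR, RSEM and DESeq2, with the build mm39, are listed in the submitters' processing notes. The counting strand is not given in the sources used here. The table is named as TPM, but each library column holds a signal the authors derived by scaling gene counts with a size factor. All values were whole multiples of a step (100%, tolerance 0.001), so reads were recovered. The deposited log2 fold change (sign turned), its score and its p-value are the authors' own, per the file headers.

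The fixed design assumed a log-scale test, kept here: limma 3.58.1 (R 4.3.3) on log2(normalized count + 1), with trend and robust moderation, on genes with at least 10 normalized counts in at least 3 libraries, with Benjamini-Hochberg adjustment over all 16411 at 0.05. edgeR 4.0.16 and DESeq2 1.42.0 were run on recovered reads. In simulated sets limma recovered 50.8% of 1.5-fold and 76.4% of 2-fold changes over 16411 genes, with 11.6 false calls per set. Each set held many planted changes, which loosens the adjusted threshold, and its noise was drawn separately for each gene. The real fit called 1 gene. The members also vary more than most genes of like level. For these reasons the shares overstate what could be recovered for them. Symbols matched 91.5% of identifiers. Members and gene lists were chosen with earlier results of these data known. Named were the members, all effectors, up to 4 genes by p and 3 by mean from each other list, and the 3 genes most like each member. A gene that this rule picks is not reported here. Gfap, the choroid plexus markers, the chromosome 3 genes other than Shox2, and unread or near-unread genes were named after their values were seen.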

Additional observations from a re-analysis of the deposited data

How the results depend on the processing

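No paired analysis was possible because the WT and 5xFAD libraries share no number in the labels. No alternative brought a member past the threshold. Shox2 and Phox2a kept their sign under every setting run for the genotype difference, though Phox2a was at 0.044 with the cerebellar covariate. With the cerebellar marker mean as a covariate, chosen after seeing the data, the log2 ratio turned to −0.12 for Tfap2a, −0.022 for Tfap2b, −0.0039 for Ddc, −0.070 for Slc18a2, 0.0636 for Eya3 and 0.046 for Six4. With the effector mean as a covariate Eya3 turned to 0.013.

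Leaving out each library in turn gave log2 ratios of 0.12 to 0.61 for Phox2a, −0.0030 to 0.42 for Tfap2a (lowest without 5xFAD 65), 0.18 to 0.67 for Tfap2b, −0.10 to 0.29 for Eya2 (lowest without WT 66) and −0.54 to −0.27 for Shox2. Turned signs of other genes ranged from −0.084 to 0.42 for Th, −0.054 to 0.43 for Dbh, −0.037 to 0.36 for Ddc, −0.15 to 0.33 for Slc18a2, −0.043 to 0.43 for Slc6a2, −0.065 to 0.039 for Eya3, −0.31 to 0.053 for Eya4 and −0.15 to 0.0067 for Dach1. Thy1 ranged from 1.16 to 1.36, and its limma adjusted p was 0.526 without the filter on low values and 0.532 without trend and robust moderation. Relative to the effectors the same omissions gave −0.11 to 0.42 for Phox2a (lowest without 5xFAD 64), −0.19 to 0.18 for Tfap2a (below 0 without WT 62, 5xFAD 65 or 5xFAD 79), −0.043 to 0.36 for Tfap2b (lowest without WT 62), −0.12 to 0.15 for Eya2 (above 0 without WT 62, WT 66 or 5xFAD 65) and −0.71 to −0.39 for Shox2, and Tfap2a turned to −0.059 relative to Dbh alone and to −0.064 relative to Th, Dbh and Slc6a2. The r of Tfap2b with Shox2, 0.00768, turned to −0.0239 with quantile normalization. The median of the Tfap2a neighbours moved to 0.035 with 10 genes on each side. The number of genes called was 1, and it was 0 without trend and robust moderation, 4 with DESeq2 and 0 to 2 without a library (0 without WT 62, WT 63, 5xFAD 64 or 5xFAD 79, and 2 without 5xFAD 65). The causes were not tested. Depth limits Phox2a most, at 31 to 58 reads.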
